A study of Pelodiscus sinensis with 8 samples.

Results

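Genes of Wnt signalling were described in the interdigital webs of embryos of Pelodiscus sinensis, the Chinese soft-shell turtle. The set was taken by gene symbol and comprised the Wnt ligands, their Frizzled, LRP and ROR receptors, the secreted antagonists of the SFRP, DKK and WIF1 type, the R-spondins with their LGR receptors and ZNRF3, and the intracellular parts from Dishevelled to the TCF factors. It held 54 of the 19328 genes in the deposited tables, and 50 of them passed the filter on low counts that left 14386 genes for testing. DKK2, RNF43, WNT3A, WNT10A, WNT10B, FZD1, FZD2, FZD5 and SFRP5, which the rule also covers, had no row under those symbols and were not analysed here. Sums and shares within families are therefore over the genes with a symbol only.

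All embryos were wild type at stage 19 of the Tokita-Kuratani series, and RNA-seq was run on 8 pools, 4 of forelimb and 4 of hindlimb webs. In both limbs web 1 lay between digits I and II, web 2 between digits II and III, web 3 between digits III and IV, and web 4 between digits IV and V. The genotype tag is ICD for forelimb libraries and anti-ICD for hindlimb libraries, and neither is explained. It divides the libraries exactly as limb does, so tag and limb cannot be told apart in any comparison of the limbs. Each pool combined 40 tissues of the left and right sides of the same 20 individuals, so the pools are positions within 1 set of animals and each web of each limb is 1 library. The p-values therefore rest on how these pools vary, which is not the variation among animals. The libraries held 53116512 to 65849337 counts. In pooled tissue, fewer cells of a type and less RNA per cell cannot be told apart.

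Wnt proteins are secreted, lipid-modified ligands that bind Frizzled receptors on nearby cells. With the co-receptors LRP5 and LRP6 they stabilise beta-catenin, which enters the nucleus and acts with TCF and LEF factors. A separate branch, typified by WNT5A and WNT11 and by the receptors ROR1 and ROR2, works without beta-catenin and shapes cell movement and polarity. In the limb bud of mouse and chick, Wnt ligands of the ectoderm maintain the apical ridge and dorsal identity, Wnt ligands of the mesenchyme direct outgrowth, and WNT9A marks forming joints. Secreted antagonists set where the ligands can act, and R-spondins raise the response by keeping ZNRF3 and RNF43 from removing Frizzled receptors.

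The main pattern lay along the webs. Of the 50 tested genes 21 changed with web number (14 rose toward web 4 and 7 fell), against 11.1% of all tested genes. By direction the background was 4.48% of all tested genes rising and 6.65% falling. Each test was edgeR's quasi-likelihood test on counts over all tested genes with Benjamini-Hochberg adjustment, called at 0.05, and the slope is in log2 units per web toward web 4. Fitted in each limb alone, the slopes of the 50 genes had the same sign in both limbs for 39 (78%), against 68.3% of all tested genes. The median size of the slope was 0.17 log2 units per web over the 50 genes and 0.07 over all tested genes, both without regard to sign. In 10 of the 21 genes the slope amounted to at least 2-fold from web 1 to web 4. The share of all tested genes with such a slope is not given here, so this count has no background.

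Levels differed far more between genes than between libraries. Levels between genes are compared as TPM, which the authors scaled to gene length, and 1 gene between libraries as CPM, the count per total library count scaled by TMM, with values given in the order of webs 1 to 4. CTNNB1, which encodes beta-catenin, had the highest mean of the set at 972 ± 35.1 TPM (SD, n = 8 pools here and for the means below). SFRP2 followed at 256 ± 144 TPM and WNT5A at 222 ± 31.4 TPM. The SD of SFRP2 covers a wide range over the libraries, whereas CTNNB1 hardly varied. The median of the mean levels was 18.7 TPM over the 50 tested genes and 15.3 TPM over all tested genes. The 4 genes under the filter were WNT2 with 71 counts over all libraries, SFRP4 with 66, RSPO4 with 65 and FZD8 with 38.

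**Figure D1:**
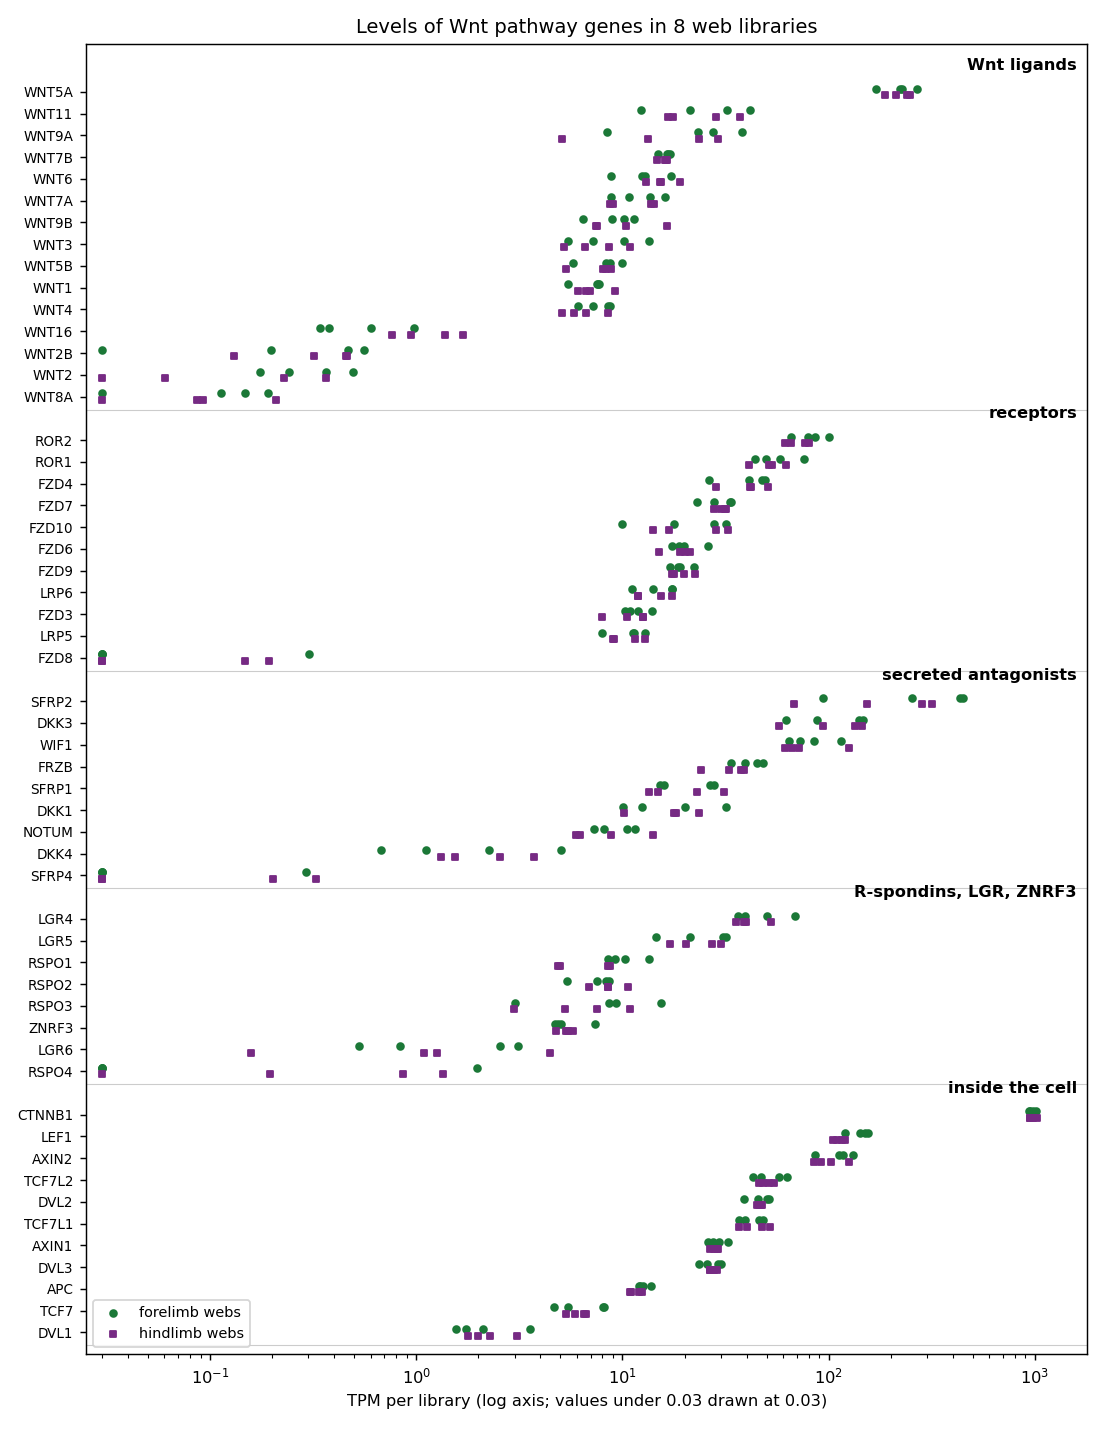
TPM per library (horizontal log axis) for each of the 54 genes, grouped by role, with green circles for the 4 forelimb pools and purple squares for the 4 hindlimb pools. CTNNB1, SFRP2 and WNT5A stand at the top of the set at mean levels of 972, 256 and 222 TPM. SFRP4, RSPO4 and FZD8 lie at the bottom of their groups, and among the ligands WNT8A lies below WNT2.

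Among the ligands, 4 of 14 tested genes rose toward web 4 (WNT5A, WNT3, WNT7A and WNT9B), 2 fell (WNT9A and WNT11) and 8 did not pass. WNT9A (ENSPSIG00000009182), which marks joint-forming tissue in mouse and chick, stood at 30.4, 40.8, 25.6 and 9.84 CPM across the forelimb webs and at 31.6, 27.7, 15.2 and 5.88 CPM across the hindlimb webs. Webs 1 and 2 of both limbs lay above webs 3 and 4 of both limbs, and web 4 was the lowest in each limb. The slope was -0.69 ± 0.127 (SE; adjusted p = 0.0052), and the mean of the web 1 libraries was 3.95 times that of the web 4 libraries. WNT11 (ENSPSIG00000013649), a ligand of the beta-catenin-independent branch, stood at 61.3, 46.0, 31.2 and 19.3 CPM across the forelimb webs and at 54.1, 45.0, 25.4 and 27.2 CPM across the hindlimb webs. Web 1 was highest and web 2 next in both limbs, with no overlap between them or with webs 3 and 4. Its slope was -0.46 ± 0.0547 (adjusted p = 0.00038).

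WNT5A, the ligand with the highest level, moved the other way from WNT11 of the same branch. WNT5A (ENSPSIG00000003397) stood at 579, 726, 898 and 813 CPM across the forelimb webs and at 630.0, 764, 866 and 845 CPM across the hindlimb webs. Web 1 was the lowest and web 2 the next in both limbs, and the peak was in web 3 of each. The slope was 0.16 ± 0.0376 (adjusted p = 0.018), and the mean of web 4 was 1.37 times that of web 1. The call rested on the web 1 libraries, since without that of either limb the adjusted p was 0.105 to 0.107.

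WNT3 and WNT7A act from the limb ectoderm in mouse, WNT3 for the apical ridge and WNT7A for dorsal identity. WNT7A (ENSPSIG00000015779) stood at 32.2, 25.6, 40.3 and 51.1 CPM across the forelimb webs and at 26.7, 27.7, 43.9 and 43.4 CPM across the hindlimb webs. All libraries of webs 3 and 4 lay above all libraries of webs 1 and 2, with a slope of 0.27 ± 0.0571 (adjusted p = 0.012). WNT3 (ENSPSIG00000004241) stood at 3.33, 4.26, 6.15 and 8.78 CPM across the forelimb webs and at 3.99, 3.39, 5.41 and 6.98 CPM across the hindlimb webs. Webs 1 and 2 overlapped, web 3 lay above them and web 4 above web 3, with a slope of 0.39 ± 0.0754 (adjusted p = 0.0071). WNT9B (ENSPSIG00000003425), which lies next to WNT3 with 0 protein-coding genes between them in the RefSeq annotation of assembly ASM4963464v1, stood at 3.68, 5.59, 6.43 and 5.40 CPM across the forelimb webs and at 4.19, 4.58, 6.13 and 9.83 CPM across the hindlimb webs. Its web 1 libraries were the lowest, and in the forelimb web 3 rather than web 4 was the highest. The slope was 0.31 ± 0.0846 (adjusted p = 0.039), and the call was lost without any library except forelimb webs 2 and 4, with adjusted p of 0.061 to 0.243.

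The ligands that did not pass covered a wide range of levels. WNT7B (16.1 TPM), WNT6 (14.3 TPM), WNT5B (7.91 TPM), WNT1 (7.14 TPM) and WNT4 (7.07 TPM) were at moderate mean levels. WNT16 (0.884 TPM), WNT2B (0.324 TPM) and WNT8A (0.105 TPM) had the lowest mean levels of the tested ligands. In counts over all libraries, WNT2B (159) and WNT8A (81) were near the filter and WNT16 (904) was not. Among the 15 ligands with a symbol, WNT5A made up 53.7, 60.1, 67.0 and 66.4% of the summed TPM across the forelimb webs and 56.4, 62.9, 68.0 and 66.2% across the hindlimb webs. It thus held more than all other ligands with a symbol together in every library, while WNT11 and WNT9A fell along the webs. WNT3A, WNT10A and WNT10B had no row and are not in the sum.

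The receptors changed in 1 direction only among those that passed, with 5 of 10 tested genes rising toward web 4 (FZD10, FZD4, LRP5, LRP6 and ROR2), 0 falling and 5 not passing. FZD10 (ENSPSIG00000000379), a Frizzled receptor, stood at 9.96, 17.3, 27.4 and 33.9 CPM across the forelimb webs and at 13.9, 18.0, 29.5 and 34.1 CPM across the hindlimb webs. Every web lay above the one before it in both limbs, with no overlap between the webs. The slope was 0.53 ± 0.0512 (adjusted p = 0.00013), and the mean of web 4 was 2.85 times that of web 1. FZD4 (ENSPSIG00000013806), a receptor for Wnt ligands and for norrin, stood at 43.5, 65.3, 77.7 and 85.6 CPM across the forelimb webs and at 46.2, 72.7, 86.3 and 72.3 CPM across the hindlimb webs. Web 1 of both limbs lay well below the rest, web 3 lay above web 2 over both limbs, and web 4 overlapped both of these. Its slope was 0.27 ± 0.0591 (adjusted p = 0.014), with an adjusted p of 0.0861 to 0.0926 without web 1 of either limb.

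The co-receptors LRP5 and LRP6 and the receptor ROR2 rose by smaller amounts. LRP5 (ENSPSIG00000009224) stood at 54.1, 75.1, 86.1 and 80.8 CPM across the forelimb webs and at 60.8, 64.8, 81.0 and 91.7 CPM across the hindlimb webs. Webs 3 and 4 lay above web 2 and web 2 above web 1 over both limbs, with a slope of 0.20 ± 0.038 (adjusted p = 0.0058). LRP6 (ENSPSIG00000009050) stood at 30.3, 45.8, 47.0 and 40.8 CPM across the forelimb webs and at 31.9, 34.4, 43.5 and 49.6 CPM across the hindlimb webs. Web 1 was lowest in both limbs and the other webs overlapped. Its slope of 0.18 ± 0.0522 lay at the threshold (adjusted p = 0.0499), and the call was lost without any library except forelimb webs 2 and 4 (adjusted p 0.0745 to 0.22).

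ROR2 and ROR1 are receptor tyrosine kinases of the WNT5A branch. ROR2 (ENSPSIG00000009820), the receptor with the highest mean level at 77.0 ± 12.9 TPM, stood at 153, 195, 233 and 197 CPM across the forelimb webs and at 141, 164, 185 and 197 CPM across the hindlimb webs. Web 1 was lowest in both limbs, and the slope was 0.15 ± 0.0384 (adjusted p = 0.029). That call was lost without forelimb web 1 or any 1 of the 4 hindlimb libraries (adjusted p 0.0531 to 0.153). ROR1 (ENSPSIG00000010191) stood at 93.5, 119, 159 and 112 CPM across the forelimb webs and at 86.3, 116, 137 and 118 CPM across the hindlimb webs. Web 3 was highest and web 1 lowest in both limbs, with webs 2 and 4 between them. ROR1 did not pass on the slope (adjusted p = 0.18) and passed the test for any difference among the webs (adjusted p = 0.0029). On simulated data the latter test exceeded its nominal share of false calls, which limits its calls here and below. The other receptors that did not pass on the slope were FZD7 (29.9 TPM), FZD6 (19.7 TPM), FZD9 (19.3 TPM) and FZD3 (11.3 TPM).

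Of the 8 tested secreted antagonists, 3 fell toward web 4 (SFRP2, DKK3 and SFRP1), 2 rose (WIF1 and NOTUM) and 3 did not pass on the slope. SFRP2 (ENSPSIG00000000523), a secreted Frizzled-related protein that binds Wnt ligands, stood at 116, 108, 64.9 and 25.8 CPM across the forelimb webs and at 80.5, 77.9, 41.0 and 18.3 CPM across the hindlimb webs. It fell at every step in both limbs, webs 1 and 2 lay above web 3 and web 3 above web 4 over both limbs. The slope was -0.73 ± 0.0925 (adjusted p = 0.00056), and the mean of web 1 was 4.47 times that of web 4. SFRP1 (ENSPSIG00000004666), of the same family, stood at 73.1, 67.4, 41.3 and 42.4 CPM across the forelimb webs and at 80.5, 64.3, 36.2 and 40.7 CPM across the hindlimb webs. Its webs 1 and 2 lay apart from webs 3 and 4, with a slope of -0.34 ± 0.055 (adjusted p = 0.0025).

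Of the DKK genes, DKK3 passed on the slope and DKK1 and DKK4 did not. DKK3 (ENSPSIG00000012064), a divergent member whose action on Wnt signalling is debated, stood at 86.0, 87.1, 53.3 and 40.4 CPM across the forelimb webs and at 87.9, 87.2, 59.2 and 36.9 CPM across the hindlimb webs. Webs 1 and 2 were level, web 3 was lower and web 4 lower again in both limbs, with a slope of -0.42 ± 0.054 (adjusted p = 0.00064). DKK1 (ENSPSIG00000015753), which blocks LRP5 and LRP6 and promotes interdigital cell death in mouse and chick, stood at 25.8, 39.8, 15.8 and 13.7 CPM across the forelimb webs and at 22.5, 32.2, 24.3 and 13.7 CPM across the hindlimb webs. Its peak was in web 2 and its lowest value in web 4 of both limbs. DKK1 passed the test for any difference among the webs (adjusted p = 0.0057) and not the slope test (slope -0.35 ± 0.121, adjusted p = 0.094). Without hindlimb web 1 the slope passed (adjusted p = 0.042), and over webs 2 to 4 it was -0.70 (adjusted p = 0.0027). DKK4 had a mean level of 2.28 TPM and did not pass.

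WIF1 and NOTUM rose against the SFRP genes. WIF1 (ENSPSIG00000005739), which binds Wnt ligands outside the cell, stood at 118, 128, 154 and 223 CPM across the forelimb webs and at 119.5, 120.4, 135 and 240.1 CPM across the hindlimb webs. Web 4 stood well above all other webs in both limbs, with a slope of 0.31 ± 0.0481 (adjusted p = 0.0018). NOTUM (ENSPSIG00000015016), an enzyme that removes the lipid of Wnt ligands, stood at 20.1, 21.7, 28.7 and 33.9 CPM across the forelimb webs and at 16.9, 17.6, 25.0 and 40.8 CPM across the hindlimb webs. Webs 1 and 2 lay below web 3 and web 3 below web 4 over both limbs. The slope was 0.35 ± 0.0519 (adjusted p = 0.0014), and the mean of web 4 was 2.02 times that of web 1. FRZB, the third SFRP-type gene tested, had a mean of 37.5 TPM and did not pass on the slope (adjusted p = 0.76).

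**Figure D2:**
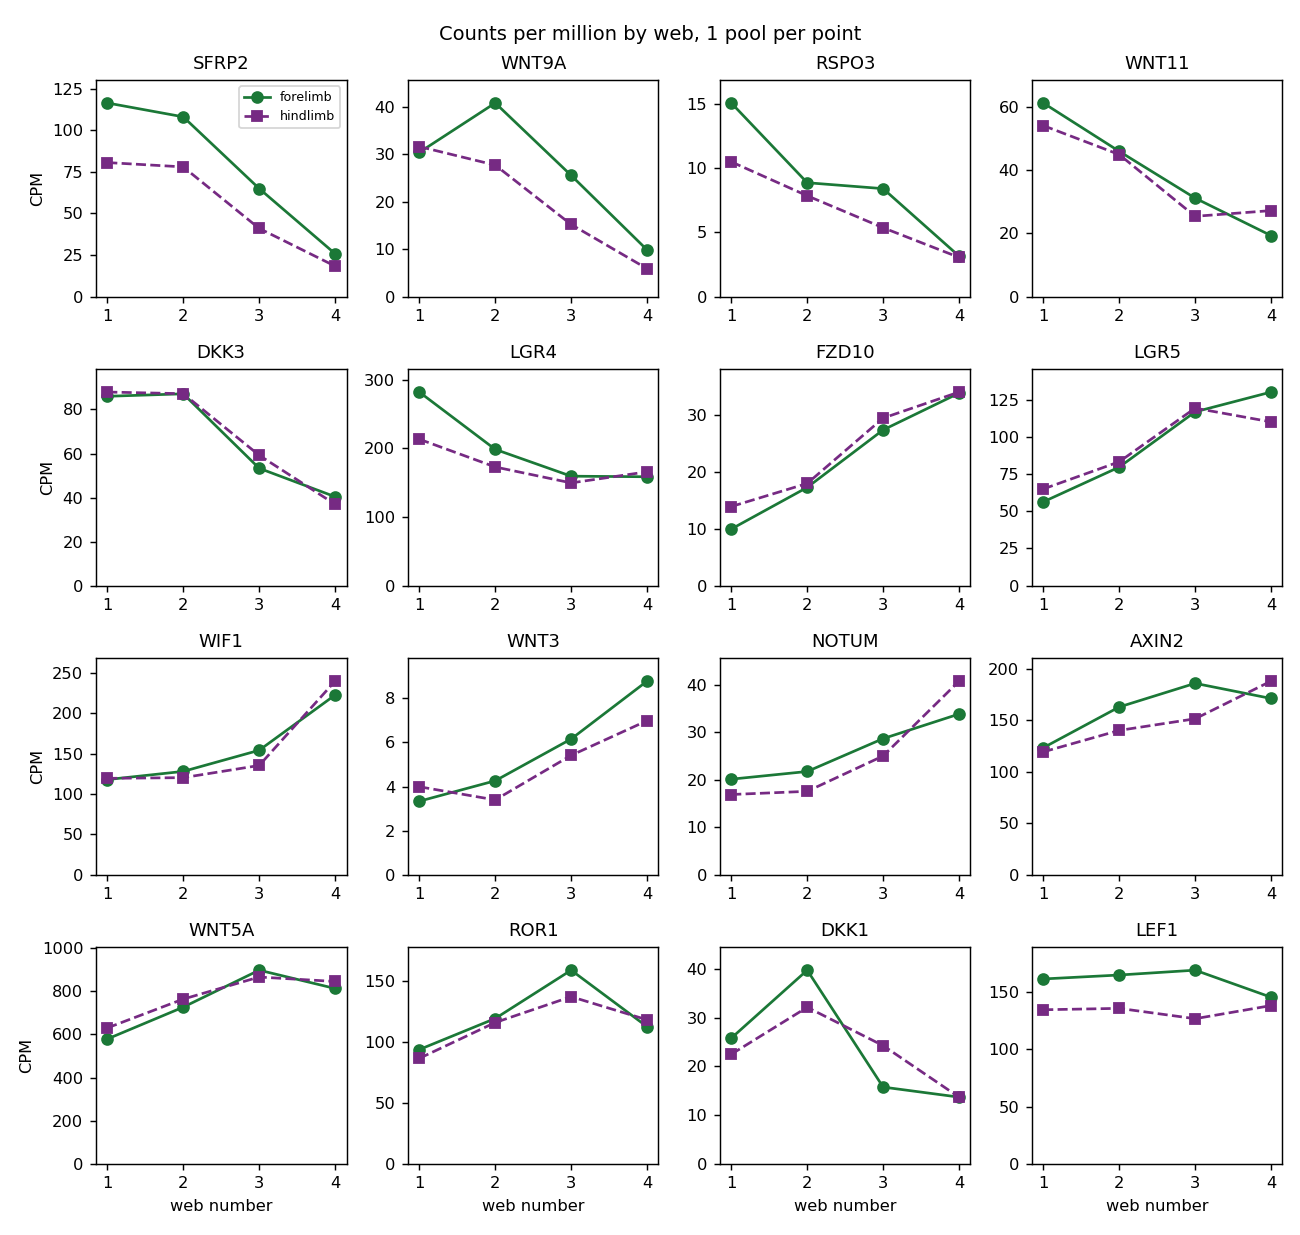
CPM (vertical axis, from 0) against web number for 16 genes, with 1 pool per point, green circles and solid lines for forelimb and purple squares and dashed lines for hindlimb. SFRP2 falls from 116 to 25.8 CPM in the forelimb and from 80.5 to 18.3 CPM in the hindlimb, FZD10 rises at every step in both limbs, DKK1 peaks in web 2 and ROR1 in web 3.

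Through these opposed changes the makeup of the antagonists turned over along the webs. The summed TPM of the 8 SFRP, FRZB, DKK and WIF1 genes was 739, 759.9, 505 and 336 across the forelimb webs and 618, 567, 384 and 304 across the hindlimb webs. SFRP2 made up 60.9, 56.8, 50.3 and 28.0% of that sum across the forelimb webs and 51.2, 50.1, 39.9 and 22.3% across the hindlimb webs. WIF1 made up 8.70, 9.52, 16.8 and 34.1% across the forelimb webs and 10.7, 10.9, 18.6 and 41.3% across the hindlimb webs. SFRP2 thus held the largest share in webs 1 to 3 of both limbs, and WIF1 in web 4 of both. The ratio of SFRP2 to WIF1 in TPM went from 7.002 in web 1 to 0.82 in web 4 of the forelimb and from 4.77 to 0.54 in the hindlimb. These sums, shares and ratios describe the libraries and were not tested. They rest on the genes with a symbol and on the authors' length scaling.

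The R-spondins and their receptors showed the same kind of exchange, with 2 of 7 tested genes rising (RSPO2 and LGR5), 2 falling (RSPO3 and LGR4) and 3 not passing. RSPO3 (ENSPSIG00000011064) stood at 15.1, 8.86, 8.40 and 3.15 CPM across the forelimb webs and at 10.5, 7.85, 5.36 and 3.05 CPM across the hindlimb webs. It fell at every step in both limbs with a slope of -0.62 ± 0.0812 (adjusted p = 0.00066), and the mean of web 1 was 4.12 times that of web 4. RSPO2 (ENSPSIG00000015891), which is required for limb growth in mouse, stood at 11.1, 14.97, 16.9 and 18.7 CPM across the forelimb webs and at 13.9, 18.6, 18.0 and 22.8 CPM across the hindlimb webs. Web 1 was lowest and web 4 highest in each limb. The slope was 0.23 ± 0.0449 (adjusted p = 0.0078), with an adjusted p of 0.0517 without hindlimb web 1.

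LGR4 and LGR5 are related receptors for R-spondins, and LGR5 marks stem cells in several tissues. LGR4 (ENSPSIG00000004259) stood at 282, 199, 159.6 and 159 CPM across the forelimb webs and at 214, 173, 149.8 and 166 CPM across the hindlimb webs. Web 1 was highest and web 2 next in both limbs, and webs 3 and 4 overlapped. The slope was -0.20 ± 0.0445 (adjusted p = 0.013), with an adjusted p of 0.0605 to 0.074 without web 1 of either limb. LGR5 (ENSPSIG00000013834) stood at 56.3, 79.7, 117 and 130.1 CPM across the forelimb webs and at 65.0, 83.2, 119 and 110.1 CPM across the hindlimb webs. Web 1 was lowest, web 2 next and webs 3 and 4 highest over both limbs, with a slope of 0.35 ± 0.0474 (adjusted p = 0.00081).

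In TPM, LGR4 exceeded LGR5 by 4.72 times in web 1 and by 1.15 times in web 4 of the forelimb, and by 3.09 times in web 1 and 1.42 times in web 4 of the hindlimb. RSPO3 exceeded RSPO2 in web 1 of both limbs, by 2.86 times in the forelimb and 1.58 times in the hindlimb, and stood at 0.351 and 0.279 times RSPO2 in web 4. The order of RSPO3 and RSPO2 was thus reversed between the first and the last web, whereas LGR4 stayed above LGR5 throughout. RSPO1 lay above RSPO2 in every forelimb web and held the largest R-spondin share in forelimb web 4, at 47.2% of the summed TPM. LGR6 (ENSPSIG00000011884), the third receptor, stood at 3.37, 4.01, 0.694 and 1.19 CPM across the forelimb webs and at 5.82, 1.52, 0.216 and 1.73 CPM across the hindlimb webs. Web 3 was lowest in both limbs. LGR6 passed the test for any difference among the webs (adjusted p = 0.026) and not the slope test (adjusted p = 0.13), and the first call was lost without web 3 of either limb or web 1 of the hindlimb (adjusted p 0.0519 to 0.123). RSPO1 (8.58 TPM) and ZNRF3 (5.41 TPM), the ligase that R-spondins inhibit, did not pass on the slope.

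**Figure D3:**
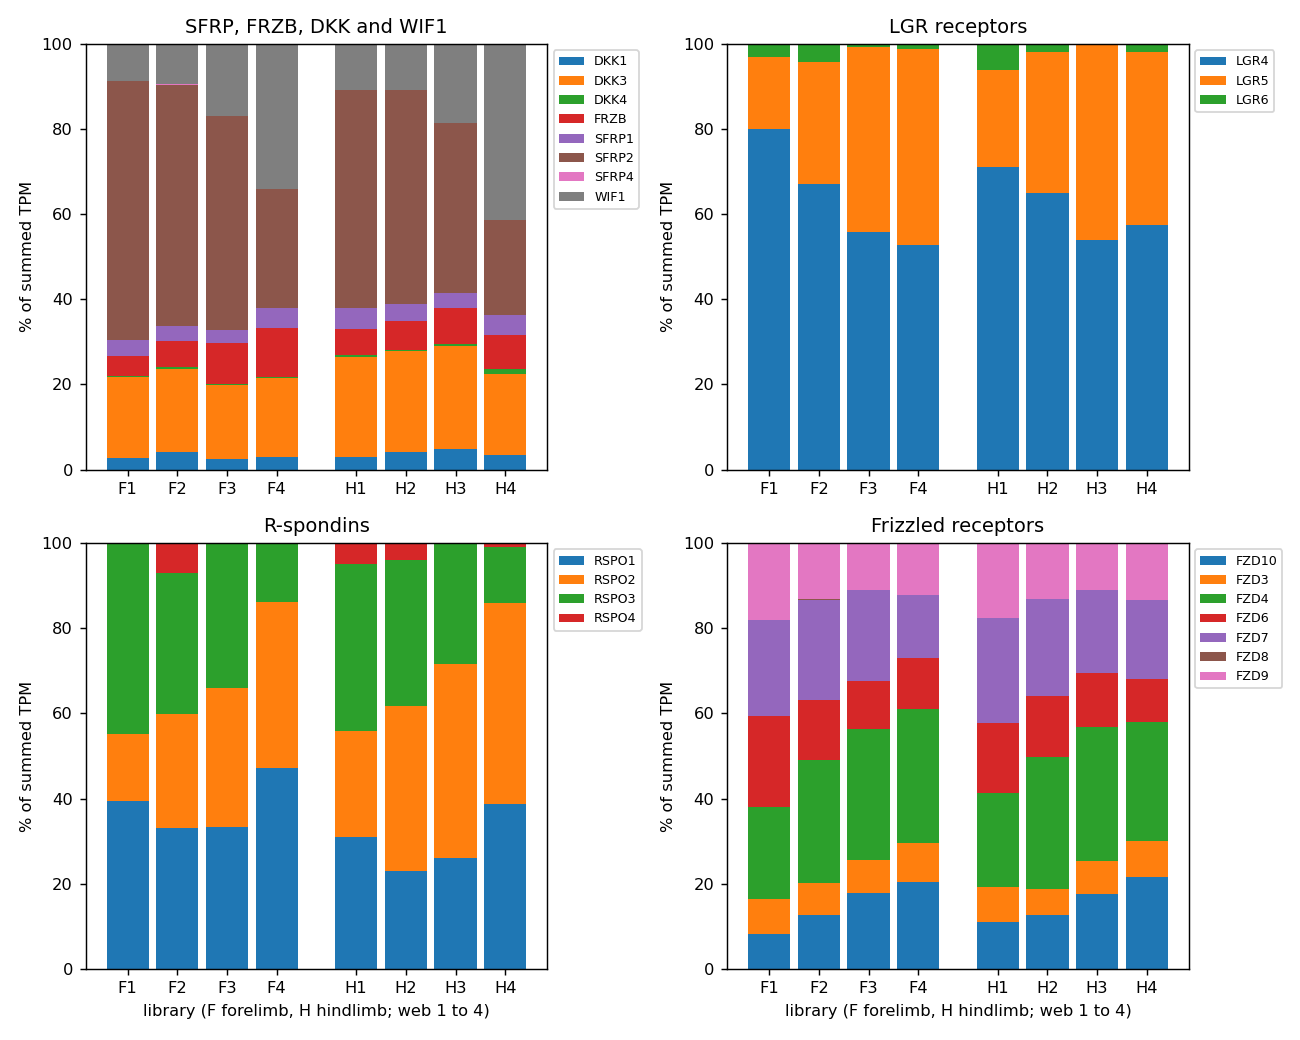
Share of the summed TPM (vertical axis, 0 to 100%) held by each gene of 4 families in the 8 libraries (F forelimb, H hindlimb, webs 1 to 4), with 1 stacked bar per library. WIF1 grows from 8.70 to 34.1% of the SFRP, FRZB, DKK and WIF1 sum in the forelimb and from 10.7 to 41.3% in the hindlimb, while SFRP2, LGR4 and RSPO3 shrink toward web 4.

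Of the 11 genes that act inside the cell, 1 rose, 0 fell and 10 did not pass on the slope, a share close to the 11.1% of all tested genes. AXIN2 (ENSPSIG00000015083), a scaffold of the beta-catenin destruction complex that is widely read as a target of beta-catenin signalling, stood at 123, 163, 186 and 171 CPM across the forelimb webs and at 119, 140.1, 151 and 188 CPM across the hindlimb webs. Web 1 was lowest in both limbs, and the slope was 0.19 ± 0.0354 (adjusted p = 0.0061), with web 4 at 1.48 times web 1. The slope of AXIN2 did not pass over webs 2 to 4 (adjusted p = 0.29) or in the forelimb alone (adjusted p = 0.33). Whether the activity of the pathway differed along the webs was not tested. CTNNB1 (ENSPSIG00000002266) stood at 1491, 1495, 1415 and 1507 CPM across the forelimb webs and at 1418, 1528, 1529 and 1631 CPM across the hindlimb webs. Web 1 lay just below webs 2 and 4, web 3 spanned the range of webs 1 and 2, and it did not pass on the slope (adjusted p = 0.53). The other genes that did not pass were LEF1 (127 TPM), TCF7L2 (51.2 TPM), DVL2 (46.5 TPM), TCF7L1 (43.3 TPM), AXIN1 (28.4 TPM), DVL3 (27.3 TPM), APC (12.1 TPM), TCF7 (6.34 TPM) and DVL1 (2.26 TPM).

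The test for any difference among the 4 webs, which does not assume a steady change, called 22 of the 50 genes, against 9.38% of all tested genes. It shared 19 with the slope test, added DKK1, LGR6 and ROR1, and left out LRP6 and WNT9B. It exceeded its nominal share of false calls on simulated data, which limits the calls that it alone made. Of those, DKK1 and ROR1 passed under all 15 alternatives and LGR6 under 10 of 15. Of the calls made by the slope test alone, LRP6 passed under 6 of 18 alternatives and WNT9B under 7 of 18. In 26 of the 50 genes the highest forelimb and the highest hindlimb library were of the same web (52%), as in 40.2% of all tested genes. Of these, 7 peaked in web 1 (FZD6, FZD9, LGR4, RSPO3, SFRP1, SFRP2 and WNT11), 4 in web 2 (AXIN1, DKK1, DVL1 and ZNRF3), 6 in web 3 (DVL3, FZD7, ROR1, TCF7L2, WNT2B and WNT5A) and 9 in web 4 (CTNNB1, FZD10, FZD3, NOTUM, RSPO2, WIF1, WNT1, WNT3 and WNT6). The shares by web over all tested genes are not given here.

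**Figure D4:**
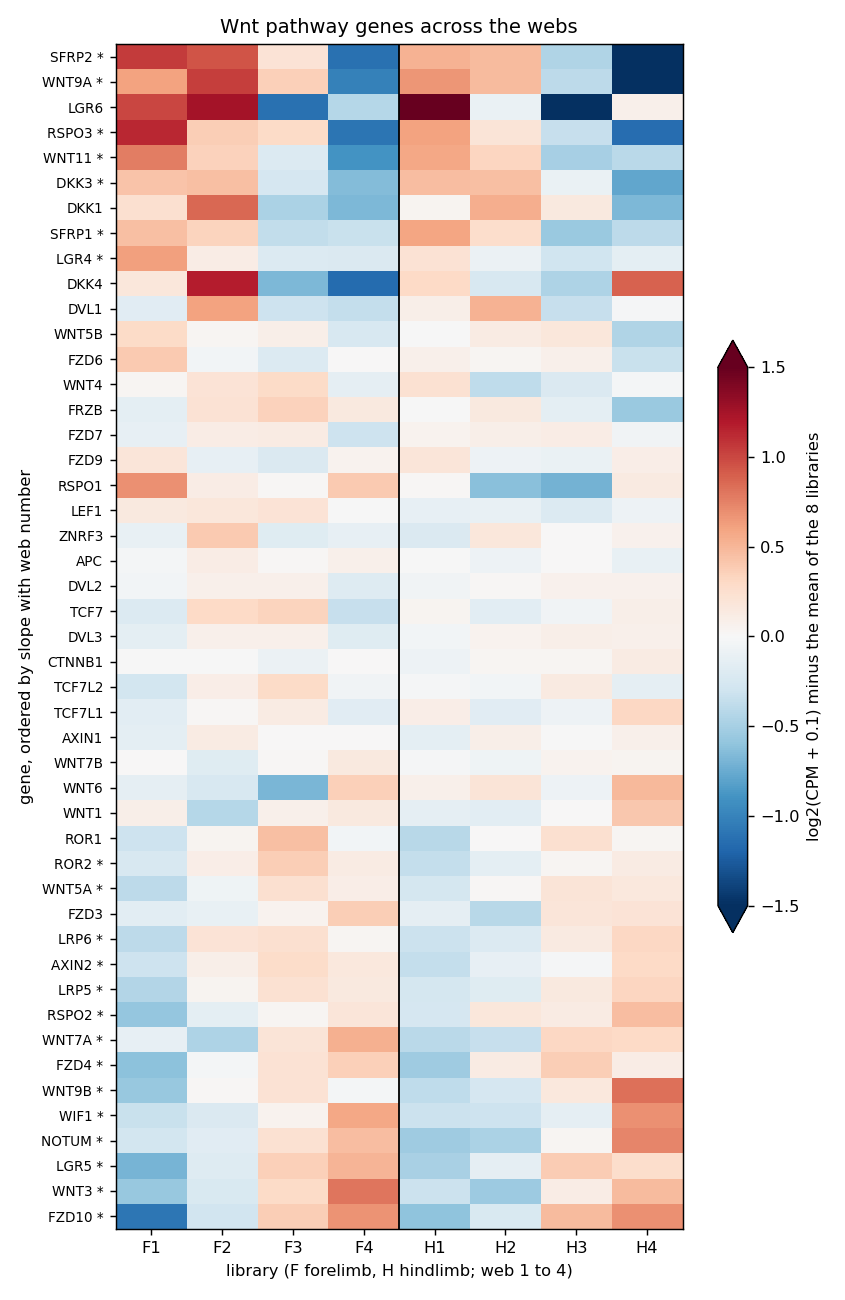
log2(CPM + 0.1) of each tested gene with a mean of at least 1 TPM, minus its mean over the 8 libraries (red higher, blue lower), with genes ordered by their slope with web number and an asterisk for a slope past an adjusted p of 0.05. The 7 genes that fell lie toward 1 end and the 14 that rose toward the other, with forelimb (F) columns on the left and hindlimb (H) columns on the right.

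The slopes did not all rest on the same webs. When web 1 of both limbs was left out, 12 of the 50 genes passed, against 4.73% of all tested genes. They were 11 of the 21 genes (SFRP2, WNT9A, RSPO3, WNT11, DKK3, FZD10, LGR5, NOTUM, WIF1, WNT3 and WNT7A) and DKK1, which fell. The other 10 genes did not pass over webs 2 to 4, and in FZD4, LGR4, LRP6, ROR2 and WNT5A the estimate was also smaller by more than 1.5 times. For FZD4 it was 0.10, for LGR4 -0.10, for LRP6 0.09, for ROR2 0.07 and for WNT5A 0.08 log2 units per web, and in both limbs web 1 held the highest value of LGR4 and the lowest value of the other 4. This was not particular to them. Web 1 was also lowest in both limbs for AXIN2, LRP5, RSPO2 and WNT9B, and for FZD10, LGR5, NOTUM and WIF1, which passed over webs 2 to 4. Of the 11 genes that passed again, WNT9A (-1.07) and WNT7A (0.41) had slopes steeper by more than 1.5 times over webs 2 to 4. Those of SFRP2 (-1.04), RSPO3 (-0.71), DKK3 (-0.59), WNT11 (-0.49), WNT3 (0.52), NOTUM (0.47) and WIF1 (0.45) were also steeper, by less. FZD10 (0.47) and LGR5 (0.28) had shallower slopes there.

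In the forelimb alone 6 genes passed (SFRP2, WNT11 and DKK3 lower, and FZD10, LGR5 and WIF1 higher toward web 4), against 2.12% of all tested genes, with 1.4% lower and 0.723% higher. In the hindlimb alone 16 passed, against 7.48%. Whether the slope itself differed between the limbs was tested by the product of limb and web number, and 0 of the 50 genes passed, as did 0% of all tested genes. With edgeR 1 gene had an unadjusted p under 0.05, and DESeq2 also called 0 of the 50 and 0.00695% of all tested genes. The share of all tested genes under that unadjusted p is not given here. The 3 genes with the lowest p were FRZB, LGR4 and DKK4, each with an adjusted p of 0.996.

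FRZB stood at 12.9, 16.7, 18.3 and 15.9 CPM across the forelimb webs and at 14.3, 15.8, 13.0 and 9.69 CPM across the hindlimb webs. The hindlimb series ended at its lowest value and the forelimb series did not, and the difference in slope was -0.30 ± 0.122. DKK4 stood at 0.837, 1.79, 0.420 and 0.274 CPM across the forelimb webs and at 0.923, 0.605, 0.505 and 1.43 CPM across the hindlimb webs, with a difference in slope of 0.96 ± 0.512. For LGR4 the difference in slope was 0.15 ± 0.0804. None of these 3 estimates was stable to leaving out 1 library, since FRZB ranged from -0.46 to -0.16, DKK4 from 0.34 to 1.57 and LGR4 from 0.02 to 0.28.

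Few calls were made between the limbs, and the fit with limb as the only term leaves differences among webs in its error. With limb as the only term, 0 of the 50 genes passed, against 0.0209% of all tested genes, 3 had an unadjusted p under 0.05 (LEF1, WNT16 and RSPO1), and DESeq2 and limma also called 0. Same-numbered libraries of the limbs deviated together, and with web number as a block 1 of the 50 passed, against 0.167% of all tested genes in either direction and 0.0765% lower in the hindlimb. That gene was SFRP2, whose hindlimb value was the lower one in all 4 webs. The 4 forelimb libraries averaged 78.8 ± 41.9 CPM and the 4 hindlimb libraries 54.4 ± 30.1 CPM (SD). The difference was -0.54 ± 0.0645 (adjusted p = 0.012) with the block and -0.53 ± 0.519 without it. Without any 1 library of webs 1 to 3 the blocked call was lost (adjusted p 0.0504 to 0.159), at estimates that all stayed between -0.56 and -0.50 over the 8 leave-outs. With the block, 9 of the 50 genes had an unadjusted p under 0.05 in edgeR. LEF1, ROR2, RSPO1, RSPO3, SFRP2 and WNT9A were lower in the hindlimb, and RSPO2, WNT16 and WNT6 were higher. The share of all tested genes under an unadjusted p of 0.05 is not given here, with or without the block.

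LEF1 (ENSPSIG00000003298), a nuclear partner of beta-catenin, was the gene whose limbs did not overlap. It stood at 161, 165, 169 and 145 CPM across the forelimb webs and at 134, 136, 127 and 138 CPM across the hindlimb webs. All hindlimb libraries lay below all forelimb libraries, as did those of 1.33% of all tested genes. None of the 50 lay wholly higher in the hindlimb, against 1.47%. The difference was -0.26 ± 0.0629, and with the block -0.26 ± 0.0643 (adjusted p = 0.26), so it did not pass in edgeR. With the block it passed in DESeq2 (adjusted p = 0.036), as did SFRP2 (adjusted p = 1.5e-09) and WNT9A (adjusted p = 0.043), which makes 3 genes against 1.01% of all tested genes. In edgeR with the block it also passed without web 4 of either limb (adjusted p 0.0458 to 0.0477).

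RSPO1 and WNT16 were the other genes with the lowest p between the limbs in the fit without the block. RSPO1 (ENSPSIG00000007793) stood at 8.31, 5.54, 5.19 and 6.79 CPM across the forelimb webs and at 5.19, 3.28, 3.10 and 5.64 CPM across the hindlimb webs. The hindlimb was lower in every web, by -0.58 ± 0.248 and by -0.61 ± 0.160 with the block (adjusted p = 0.29). WNT16, a ligand at a low level, stood at 1.34, 0.745, 0.840 and 2.30 CPM across the forelimb webs and at 1.68, 2.24, 3.88 and 3.20 CPM across the hindlimb webs. The hindlimb was higher in every web, by 1.07 ± 0.418 and by 1.13 ± 0.360 with the block (adjusted p = 0.39). In all, 4 of the 50 genes were lower in the hindlimb in every web (LEF1, RSPO1, RSPO3 and SFRP2), against 9.07% of all tested genes, and 4 were higher in every web (FZD10, RSPO2, WNT16 and WNT6), against 8.51%. Both shares are close to the background. The median size of the blocked limb difference was 0.09 log2 units over the 50 genes and 0.10 over all tested genes.

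**Figure D5:**
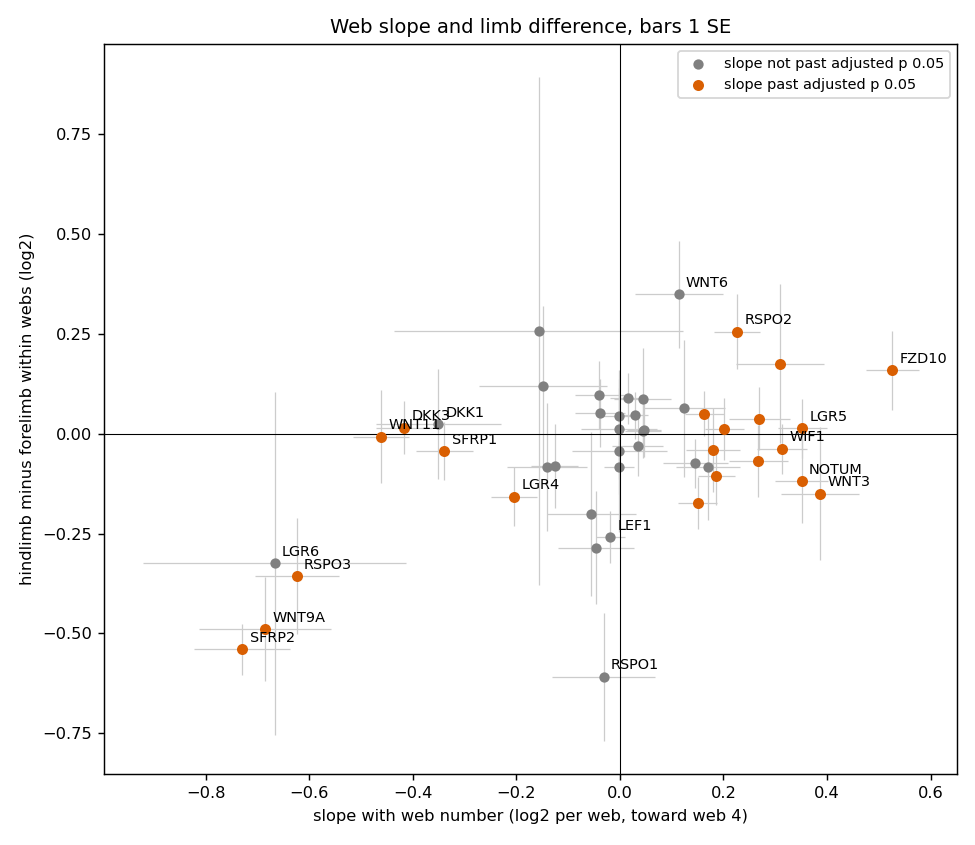
Slope with web number (horizontal axis, log2 per web toward web 4) against the hindlimb minus forelimb difference within webs (vertical axis, log2) for tested genes with a mean of at least 1 TPM, with bars of 1 SE and orange points for slopes past an adjusted p of 0.05. SFRP2 lies at the lower left, at a slope of -0.73 and a limb difference of -0.54, and LEF1 lies near a slope of 0 at a limb difference of -0.26.

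A list of 81 other genes of the pathway gave 59 with a symbol and 58 tested. On the slope 5 of the 58 rose (TNFRSF19, PYGO1, TLE4, NKD1 and CTNNBIP1), 4 fell (KREMEN2, DACT1, SOST and CTHRC1) and 49 did not pass, which is closer to the background of 11.1% than the 50 genes were. KREMEN2, a receptor through which DKK1 acts on LRP5 and LRP6, fell from a mean of 55.7 CPM in web 1 to 36.2, 20.4 and 20.5 CPM in webs 2 to 4 (slope -0.51 ± 0.0618, adjusted p = 0.00044). DACT1, which binds Dishevelled, fell from 73.8 to 45.0 CPM (slope -0.25 ± 0.0412, adjusted p = 0.0029). SOST, which encodes sclerostin, an inhibitor of LRP5 and LRP6, was at a low level and fell from 3.01 to 0.551 CPM (slope -0.78 ± 0.187, adjusted p = 0.021). NKD1, an inhibitor of the pathway, rose from 191 to 247 CPM (slope 0.13 ± 0.024, adjusted p = 0.006). CTNNBIP1, which keeps beta-catenin from TCF factors, rose from 14.5 to 20.6 CPM (slope 0.17 ± 0.0393, adjusted p = 0.015). The test for any difference among the webs called 8 of the 58, against 9.38% of all tested genes. Between the limbs edgeR called 0 of the 58, with 3 at an unadjusted p under 0.05, and 0 with the block, with 5 at an unadjusted p under 0.05. DESeq2 called 0 without the block and, with it, RECK and APCDD1 as lower in the hindlimb. For the difference in slope edgeR and DESeq2 called 0 each, with 3 at an unadjusted p under 0.05 in both. These counts at an unadjusted p have no share of all tested genes beside them here. The count on the slope moved with single libraries, at 14 when forelimb web 4 was left out, 5 for hindlimb web 1 and 4 for hindlimb web 4.

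Markers of other tissues also varied along the webs. The summed TPM of 6 epidermal markers of 11 listed, of which KRT19 was at 0, was 287 to 452 in the forelimb and 282 to 362 in the hindlimb and was highest in web 1 of both. Among them TP63 rose toward web 4 (adjusted p = 0.014) and GRHL3 fell (slope -0.63, adjusted p = 0.00021). The sum of 4 macrophage markers of 6 listed was 61.7, 43.0, 21.7 and 25.5 TPM across the forelimb webs and 50.2, 33.1, 25.6 and 29.0 TPM across the hindlimb webs, and CSF1R (adjusted p = 0.0049) and SPI1 (adjusted p = 0.038) fell. The sum of 4 muscle markers of 7 listed was 48.4 to 132 TPM in the forelimb and 60.7 to 279 TPM in the hindlimb. Endothelial markers (7 of 7 listed, 45.3 to 64.9 TPM in the forelimb and 57.3 to 62.7 TPM in the hindlimb) and cartilage markers (7 of 8 listed, 130.1 to 149 TPM and 122 to 157 TPM) also held genes that changed along the webs. Of the endothelial markers PECAM1 (adjusted p = 0.045), CDH5 (adjusted p = 0.045) and SOX18 (adjusted p = 0.046) fell and ERG rose (slope 0.37, adjusted p = 0.0006). KDR, TEK and TIE1 did not pass, at slopes of -0.10, -0.21 and -0.12. ERG had the highest mean level of the endothelial list (17.2 TPM), so the range of the sum hides opposed changes. Of the cartilage markers SOX9 fell (adjusted p = 0.039) and COL2A1 rose (adjusted p = 0.012). The pigment cell markers DCT (adjusted p = 0.0045) and SOX10 (adjusted p = 0.003) fell. Between the limbs, 2 erythroid markers of 6 listed summed to 1116 to 1895 TPM in the forelimb and 561 to 1178 TPM in the hindlimb, and 6 pigment cell markers of 7 listed to 54.4 to 78.3 TPM and 46.7 to 53.0 TPM. With web number as a block DESeq2 called 4 of the 6 pigment cell markers lower in the hindlimb (DCT, SOX10, TYR and KIT), against 1.01% of all tested genes. Without the block it called TYR and KIT, against 0.125%. DESeq2 called 0 of the erythroid markers, and edgeR called 0 of either list in both fits. The part of these tissues in the changes of the Wnt genes was not tested.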

How the data were processed

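RNA-seq of 8 pools of interdigital tissue was analysed, 4 per limb. Per the labels' protocols, DNase-treated total RNA went into NEBNext Ultra RNA libraries that were read on an Illumina platform from both ends. The authors deposited a table of whole-number counts per gene, which were not normalised, and a table of TPM per gene with symbols. Per the submitters' processing notes the tools were HISAT2 2.2.1 and StringTie 2.1.7. Strand setting, annotation and genome build are not given in the sources used here, so reads of overlapping or antisense genes may be mixed. Gene coordinates were used only for the order of WNT3 and WNT9B, in an assembly not known to be the one behind the counts. Of 20472 count values from 1 to 40, 35.5% were divisible by 4 where 25% would be if all values were equally common, so counts are not independent reads and counting intervals are left out.

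The TPM table gave the symbols. The tests on counts ran in edgeR 4.0.16 under R 4.3.3. Its filterByExpr, grouped by limb with a minimum count of 10 and a minimum total of 15, kept 14386 of 19328 genes. Libraries of 53116512 to 65849337 counts were scaled by TMM (factors 0.973 to 1.02). Quasi-likelihood tests, adjusted by Benjamini-Hochberg over all tested genes, had limb alone, limb and web number from 1 to 4 (slope), limb and web as a factor (any difference), or limb, web number and their product. The limb difference is hindlimb minus forelimb. Residual degrees of freedom were 6 for limb, 5 for the slope and 4 for the product. They were 3 for limb with web number as a block and for any difference, whose designs hold the same terms. The standard error of a log2 value is its size over the square root of F. Alternatives used DESeq2 1.42.0, limma 3.58.1 on log2(TPM + 1) or log2(TPM + 0.1), other scalings, no filter, a robust prior, each library left out, webs 2 to 4, each limb alone, and web number as a block or covariate. The tests were tested on simulated data, where the test of any difference exceeded its nominal share of false calls.

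Between the limbs, the deviations of same-numbered webs from their limb mean had correlations of 0.498, 0.189, 0.242 and 0.327 (webs 1 to 4). Each lay above 0.1, so the limb comparison was repeated with libraries paired by web number. The main limb test was left unpaired. All 8 pools share their animals, so the animals do not tie a web to its own number. Neighbouring webs reached 0.184 (forelimb web 2, hindlimb web 1) and 0.237 (forelimb web 3, hindlimb web 4). The Wnt genes and the lists were chosen with earlier results of these data known. Values in every library are given for genes past 0.05 in any test, the gene with the highest mean TPM in each role, and LEF1, AXIN2, WNT5A, SFRP2, DKK1 and DKK3. For a test that no gene passed, the 3 with the lowest p are given. The genes named from the other pathway list were chosen after their values were seen. No sequences are shown.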

Additional observations from a re-analysis of the deposited data

Results flagged for a closer look

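In 5 of the 100 groups of 4 libraries (50 genes in each limb), 1 library stood apart from the other three, with a gap to the nearest of them of more than Dixon's critical share of the whole range. For 4 draws from 1 normal distribution this happens in about 1 of 20 groups. The groups here are 4 different webs, so that rate is no background for the share seen. WIF1 stood at 240.1 CPM in hindlimb web 4, above 119.5 to 135 CPM in the other hindlimb webs, and web 4 was also the highest forelimb library. Forelimb web 2 accounted for 3 of the 5. It was highest for DVL1 at 4.781 CPM (2.41 to 2.75 CPM in the others) and for ZNRF3 at 12.3 CPM (8.26 to 8.69 CPM), and lowest for WNT1 at 3.381 CPM (4.86 to 5.10 CPM). FZD6 was lowest in hindlimb web 4 at 32.79 CPM (42.3 to 43.8 CPM in the others). Of these genes only WIF1 passed a test in the report.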

How the results depend on the processing

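None of the single-gene results on Wnt genes that were recomputed under the alternatives reversed. The replicate block on web number raised the members called between the limbs from 0 to 1 (SFRP2) in edgeR, and to 3 in DESeq2, an alternative chosen after seeing the data. Without 1 library the blocked count was 0 or 2. In edgeR the block changed no other call of the Wnt genes or of the other pathway genes, and in DESeq2 it added LEF1, SFRP2 and WNT9A to the former and RECK and APCDD1 to the latter. No paired analysis was possible for the slope, for any difference among webs or for the slope difference, because web number is the term tested there. The 21 slope calls became 12 over webs 2 to 4, 6 in the forelimb alone and 16 in the hindlimb alone, each fitted on fewer libraries. With 1 library left out they were 15 to 22. With limma on TPM 16 passed (9 rising, 7 falling), and with library size alone 18 (11 rising, 7 falling). Of the 21, 14 passed in every leave-out and 6 in every alternative. The 22 calls of any difference ranged from 15 to 24, and 14 of the 22 passed in every leave-out and 13 in every alternative. WNT3 (adjusted p 0.0621 to 0.102), LRP5 (0.0526 to 0.173), RSPO2 (0.0506 to 0.215), AXIN2 (0.0569 to 0.209), ROR2 (0.106 to 0.231), WNT5A (0.0564 to 0.0967) and LGR4 (0.102) lost that call in some leave-outs. The 9 other pathway genes called on the slope became 5 with limma on log2(TPM + 1) or log2(TPM + 0.1), 1 in the forelimb alone and 4 to 14 with 1 library left out. Among these alternatives, shares of all tested genes on the slope are given only for webs 2 to 4 and each limb alone. The counts under the other alternatives, on the slope and on any difference, have no background here. The causes of the changes in all these counts, fewer libraries among them, were not tested. With 1 pool per web and limb, animal-to-animal spread was not measured, and how far depth limits low genes such as WNT16, DKK4 and LGR6 was not tested.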
